A study of Mus musculus with 4 samples.

Results

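Gene expression in the dentate gyrus (DG) was examined for 7 genes that encode transcription factors of the basic leucine zipper (bZIP) class, *Atf3*, *Crem*, *Cebpb*, *Cebpd*, *Maff*, *Batf3* and *Nfil3*. They were taken by gene symbol, with every probe set annotated to 1 of these symbols alone. All 7 were on the Affymetrix Mouse Genome 430A 2.0 array, out of 12393 genes, and they were read by 11 probe sets. *Atf3*, *Maff*, *Batf3* and *Nfil3* had 1 probe set each, whereas *Crem* had 3 and *Cebpb* and *Cebpd* had a pair each.

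The study asked whether electroconvulsive stimulation (ECS), which models electroconvulsive therapy in rodents, alters the state of granule cells (GCs) and their response to a new stimulus. DG RNA of 3 C57Bl/6 mice was pooled for each of 4 arrays, so every group had 1 array and no spread between mice or arrays could be measured. By the methods, mice were male and 8 weeks old when purchased. By the methods, ECS was given through ear clips under isoflurane. The sham group had 1 session, handled like the ECS mice but with no current, and was taken 1 h later. Sham and single ECS mice thus had fewer sessions of handling and anesthesia than mice with repeated ECS, and in comparisons across them repeated sessions and repeated current cannot be told apart. The single ECS group was taken 1 h after its only ECS, and the 11 ECS group 1 h after the last of 11 sessions given over up to 3 weeks. The 10 ECS group was taken 48 h after the last of 10 sessions and, by the study's description, had a sham session shortly before dissection. Titles were used for the groups, since the free-text descriptions of 3 samples name other treatments.

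A bZIP factor binds DNA through a basic region and pairs with a partner through a leucine zipper, so that which partners are present sets which sites are bound and whether genes are activated or repressed. ATF3 and CREM belong to the CREB/ATF branch, which reads cAMP and calcium signals at cAMP response elements (CREs), and *Crem* also gives rise to a short repressor, ICER, from an internal promoter. C/EBPβ and C/EBPδ, MAFF (a small Maf protein without an activation domain), BATF3 (a JUN partner) and NFIL3 (a repressor that competes with the clock-related PAR bZIP factors) belong to other branches. Several of these genes are known as early genes, whose transcription starts without new protein synthesis.

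Signals are given in MAS5 units, the linear output of the Affymetrix software. Ratios used a floor of 12 units, which is the 25th percentile over all signals and replaced any lower signal, and a ratio against an array at the floor is a lower bound. Fold changes of 2 or more were counted as a size and not as a test. The median signal was between 56.3 and 69.3 units on the 4 arrays and was highest on the sham array, so that the median log2 ratio of all genes was -0.24 for single ECS against sham and -0.11 for 11 ECS against 10 ECS. The 6 GC markers were all above the floor on every array. Their summed signal ran from 6622 units on the sham array to 3318 on the 11 ECS array, and the markers differed: against sham, *Calb1*, *Dsp*, *Tdo2* and *Il1r1* had log2 ratios between -1.31 and -2.29 after 11 ECS, whereas *Prox1* (-0.13) and *Neurod1* (0.19) were above the median of all genes, -0.23. In pooled tissue, fewer cells of a type and less RNA per cell cannot be told apart.

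*Atf3*, *Nfil3* and *Maff* were higher on both arrays taken 1 h after an ECS (the 1 h arrays, single ECS and 11 ECS), before and after repeated treatment. *Atf3*, a gene induced by neuronal activity and by stress, read 15.4 units on the sham array, 520.2 with a single ECS, 1.9 with 10 ECS and 392.5 with 11 ECS. Both 1 h arrays were far above the others. The ratio was 33.8-fold for the first ECS, rank 2 of 10133 genes measured, and at least 32.7-fold for the 11th, rank 1 of 10046 with bounds taken as values. *Nfil3* read 93.7, 608.4, 81.2 and 284.9 units in the same order, a ratio of 6.49-fold for the first ECS and of 3.51-fold for the 11th. Its resting levels in sham and after 10 ECS were close, while the level after 11 ECS lay between rest and the single ECS peak. *Maff* read 1.8, 51, 3.1 and 23 units, at the floor on both arrays without a recent ECS and above it on both 1 h arrays. Its ratio was at least 4.25-fold for the first ECS and at least 1.92-fold for the 11th. With a floor of 50 units the first bound of *Maff* shrank to a log2 ratio of 0.03, so that its size rests on signals under 50 units.

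**Figure D1:**
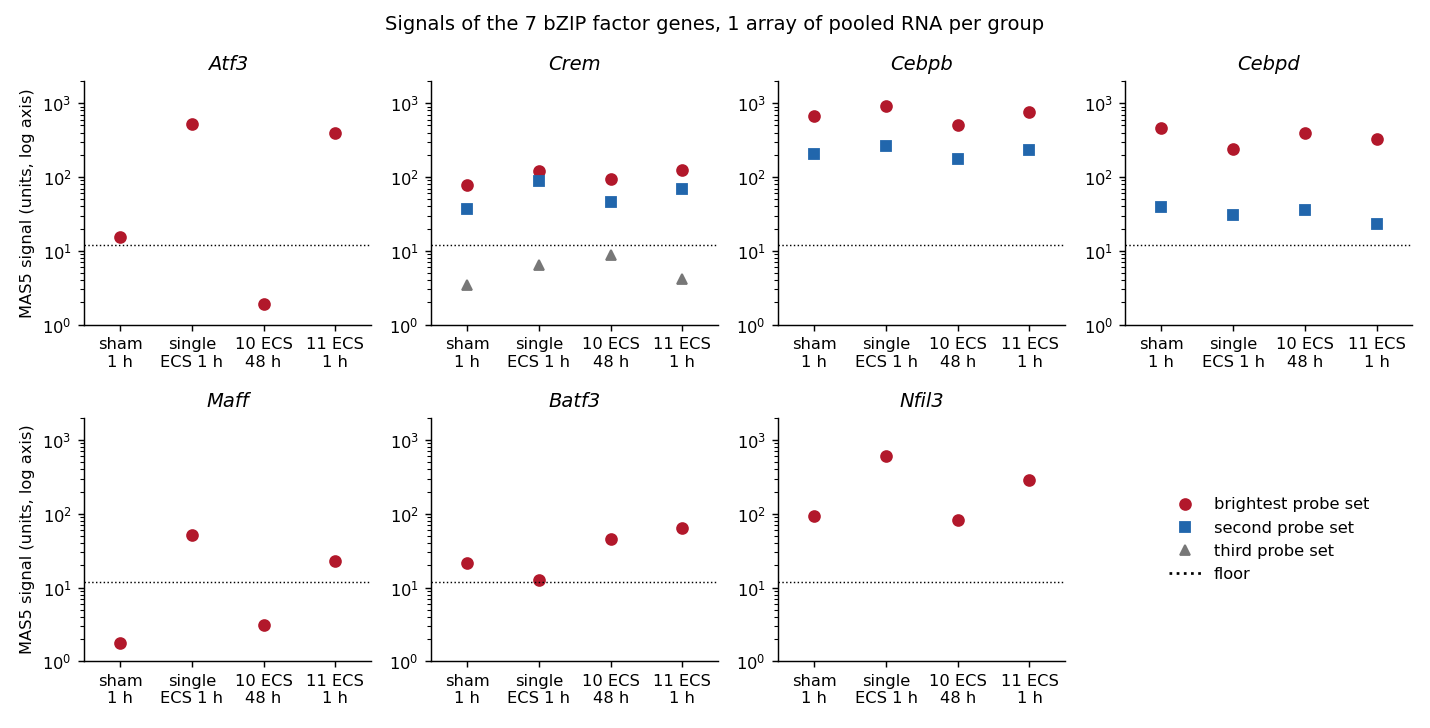
MAS5 signals (units, log axis) of the 7 bZIP factor genes in the 4 groups, each point 1 probe set on 1 array of RNA pooled from 3 mice, and the dotted line the floor of 12 units. *Atf3*, *Nfil3* and *Maff* are high on both 1 h ECS arrays (520.2 and 392.5, 608.4 and 284.9, 51 and 23 units), *Cebpd* is lowest after a single ECS by its brightest probe set (239.1 units), and *Batf3* is highest after 11 ECS (63.5 units).

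Over the whole group, 3 of 7 genes had at least 2 times the sham signal after a single ECS, as did 1.2% of all 10133 genes measured, and 0 were at least 2-fold lower, as were 2.89% of all genes. With arrays scaled to the same median, the same 3 genes passed and the shares over all genes were 2.15% higher and 0.881% lower. After the 11th ECS, 2 of 7 were at least 2-fold higher (*Atf3* and *Nfil3*) against 1.06% of all genes, and 0 were lower against 1.21%. After median scaling *Maff* also passed, 3 of 7, and the shares over all genes were 1.52% and 0.783%. The median log2 ratio of the 7 genes was 0.64 after the first and 0.58 after the 11th ECS, which is 0.88 and 0.69 above the median of all genes. The group was named with earlier results of these arrays in view, so its counts are a description.

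The bases just before the RefSeq starts of these genes are shown because CREs are the sites through which CREB/ATF factors act and several of these genes were higher together at 1 h. RefSeq (GRCm38.p6) gave 7 starts for 5 of the 7 genes. Of the 3 *Maff* starts only the second is printed, which holds a CRE. The last 120 bases before its other starts held no TGACG on either strand. The last 120 bases before the start are printed 5′ to 3′ on the strand of the gene, and capitals mark TGACG on either strand, extended to TGACGT or to the full CRE TGACGTCA where these letters follow. The stretches are chr1:191183334-191183453 (minus strand) for *Atf3*, chr13:52981040-52981159 (minus strand) for *Nfil3*, chr15:79347400-79347519 (plus strand) for the second of 3 starts of *Maff*, chr2:167688795-167688914 (plus strand) for *Cebpb* and chr1:191098294-191098413 (plus strand) for *Batf3*.
Atf3: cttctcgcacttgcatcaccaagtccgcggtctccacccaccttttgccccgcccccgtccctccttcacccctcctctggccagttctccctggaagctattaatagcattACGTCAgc
Nfil3: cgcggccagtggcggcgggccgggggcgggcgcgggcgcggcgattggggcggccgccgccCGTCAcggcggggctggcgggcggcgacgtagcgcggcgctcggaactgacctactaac
Maff: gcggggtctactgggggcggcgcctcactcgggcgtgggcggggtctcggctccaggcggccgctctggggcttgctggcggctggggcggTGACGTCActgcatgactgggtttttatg
Cebpb: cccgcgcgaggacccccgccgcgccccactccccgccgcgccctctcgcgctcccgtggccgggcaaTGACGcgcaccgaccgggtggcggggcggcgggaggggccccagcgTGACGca
Batf3: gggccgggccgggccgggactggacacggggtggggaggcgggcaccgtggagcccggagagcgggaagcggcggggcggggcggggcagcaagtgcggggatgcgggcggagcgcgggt

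The full CRE was found at the second start of *Maff*, 29 bases before the start, and at no other start of these genes within 250 bases. It occurs in 1.55% of all 32851 promoters of that length. *Atf3* had TGACGT on the other strand 8 bases before its start, a match present in 6.47% of all promoters. The shorter TGACG, which both longer motifs contain, was found 3 times before *Cebpb*, of which 1 match lies farther out than the printed stretch, once each before *Nfil3* and *Atf3* and at 2 of the 3 *Maff* starts, and in 17.8% of all promoters. *Batf3* had none of these letters within 250 bases. The AP-1 site TGANTCA (in 6.75% of promoters), the site of NFIL3 and the PAR bZIP factors TTACGTAA (in 0.113%) and the CArG box (in 1.47%) were found at none of the 7 starts, on either strand. A match is a match of letters only.

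**Figure D2:**
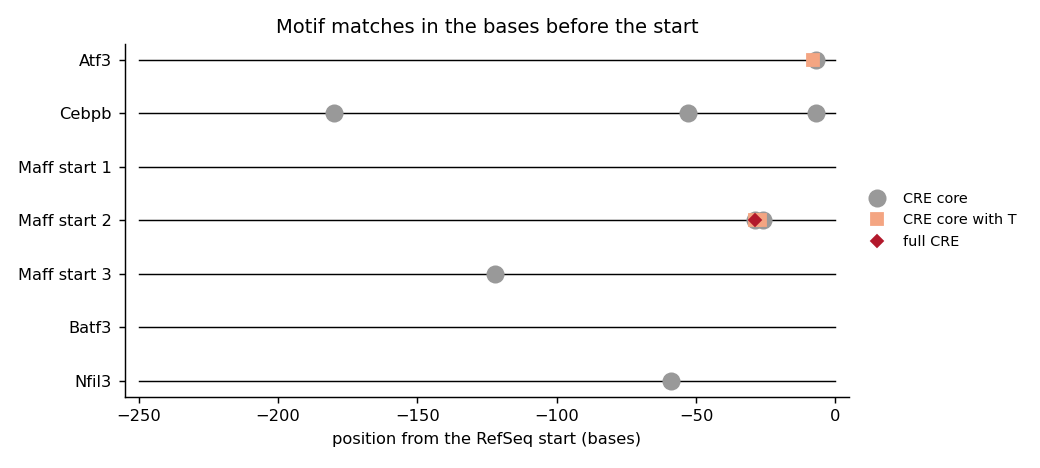
Positions of motif matches in the 250 bases before the 7 RefSeq starts of 5 bZIP factor genes (bases from the start, each line 1 start), with TGACG shown as CRE core, TGACGT as CRE core with T, and TGACGTCA as full CRE. The full CRE lies at -29 at the second start of *Maff*, and *Batf3* has no match.

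*Crem* and *Cebpb* were higher at 1 h by smaller ratios. The brightest *Crem* probe set read 77.1, 120, 94.6 and 126.5 units from sham to 11 ECS. The ratios were 1.56-fold for the first ECS and 1.34-fold for the 11th. Another probe set of *Crem* read 36.7, 88.6, 45.9 and 68 units, 2.41-fold and 1.48-fold higher, and the third was at the floor on all 4 arrays. Both measured probe sets were thus higher on each 1 h array than on its own comparison array, and the 2-fold limit was passed by the dimmer one after a single ECS alone. The transcripts that each *Crem* probe set reads were not looked up here, so these values do not separate ICER from the longer forms.

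*Cebpb*, which encodes a factor induced by cytokines and by cAMP, read 664.2, 920.1, 513.5 and 767.3 units by its brightest probe set. The other probe set read 204.7, 262.7, 177.9 and 229.8 units and put the 4 arrays in the same order. The log2 ratio of the brightest was 0.47 after the first and 0.58 after the 11th ECS, and that of the other was 0.36 and 0.37. Between probe sets of 1 gene, over all genes with several, the pooled SD of the log2 ratio was 0.29 and 0.27 for these comparisons. This SD covers probe sets and not arrays or mice.

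*Cebpd*, the close relative of *Cebpb*, was lower on both 1 h arrays. Its brightest probe set read 458.6, 239.1, 394.6 and 329.1 units from sham to 11 ECS. The signal was 1.92-fold lower after the first ECS, rank 365 from the lowest of 10133 genes, and 1.20-fold lower after the 11th. Relative to the median of all genes, the log2 ratios were -0.70 and -0.16. The dimmer probe set read 39.5, 31, 35.9 and 23.1 units, also lower on both 1 h arrays, but with the larger ratio after the 11th ECS (1.55-fold, against 1.27-fold after the first). The 2 probe sets therefore did not give the same order for the 1 h arrays. Among cell types that the dissected tissue could hold besides GCs, the summed signal of 8 microglia markers ranged from 2260 to 2456 units. That of 6 astrocyte markers ranged from 3886 to 4346. Each sum, not scaled between arrays, was lowest on the single ECS array, and 1 microglia marker was at the floor on each 1 h array. Relative to the median of all genes, the median log2 ratio of the microglia markers was 0.21 higher after the first ECS and 0.09 after the 11th. For the astrocyte markers it was 0.12 and 0.10 higher. The part of these cells in the *Cebpd* values was not tested.

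**Figure D3:**
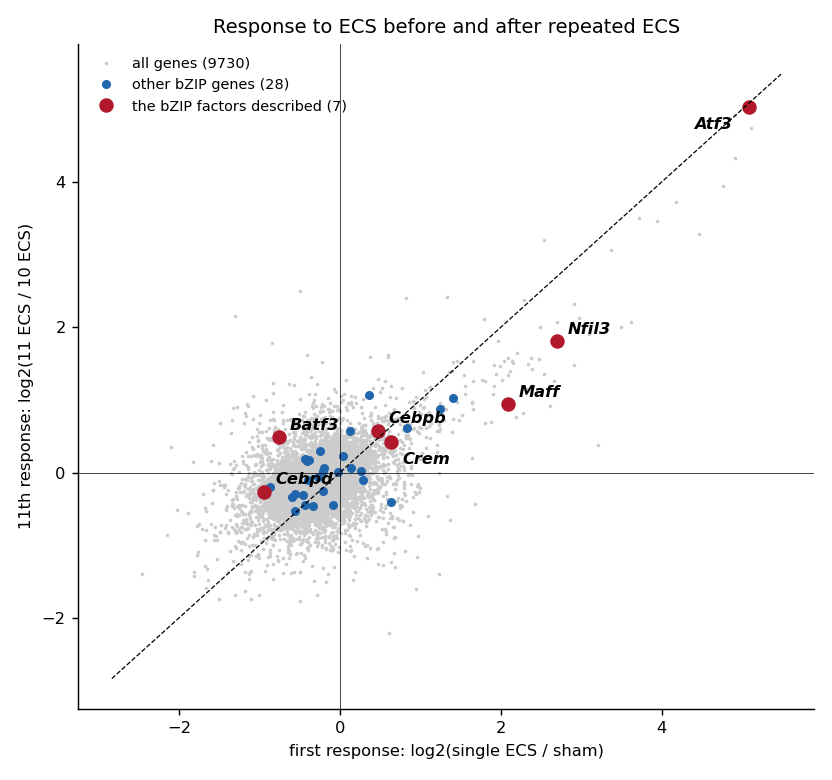
Log2 ratio of 11 ECS over 10 ECS plotted against that of single ECS over sham, each point 1 gene by its brightest probe set, with signals at the floor entered at the floor and the dashed line marking equal ratios. *Atf3* lies at 5.08 and 5.03, *Nfil3* at 2.70 and 1.81 and *Maff* at 2.09 and 0.94, whereas *Cebpd* lies at -0.94 and -0.26 and *Batf3* at -0.76 and 0.49.

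*Batf3* had a pattern of its own among the 7. It read 21.3 and 12.6 units on the sham and single ECS arrays and 45.1 and 63.5 units on the 10 ECS and 11 ECS arrays, so that both arrays of mice with repeated ECS were above both others. The signal was 2.12-fold higher 48 h after 10 ECS than in sham, rank 58 of 10202 genes, and 5.04-fold higher after 11 ECS than after a single ECS, rank 1 of 9971 genes. The latter ratio starts from 12.6 units, close to the floor. With a floor of 50 units it shrank to a log2 ratio of 0.34, and the former had no value. Among genes with a mean signal between 12 and 50 units, 2.41% were at least 2-fold higher after 10 ECS than in sham and 2.65% after 11 ECS than after a single ECS. The summed astrocyte markers read 4346, 3886, 4142 and 4198 units from sham to 11 ECS. Of these markers, *Gfap*, an intermediate filament gene of reactive astrocytes, read 49.3, 45.6, 114.1 and 135 units. *Aqp4* (1076.5, 990.5, 1400.6 and 1372.8 units) and *Slc1a2* (128.9, 126.5, 150.9 and 137.1) were also higher on both repeated ECS arrays than on both others. *Slc1a3* (1841.2, 1603.4, 1354.5 and 1368.2 units), *S100b* and *Aldh1l1* were not. The summed signal of 6 endothelial markers read 436.1, 425.7, 494.2 and 469.6 units from sham to 11 ECS. Of these, *Cldn5*, *Pecam1* and *Kdr* were higher on both repeated ECS arrays than on both others, and *Flt1*, *Tek* and *Cdh5* were not. The part of astrocytes or endothelial cells in the *Batf3* values was not tested.

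*Batf3* and *Atf3* are near neighbours on chromosome 1. By the first coordinate listed for each gene, which is not always its transcription start, 4 annotated genes lie between them. Of these 1, *Fam71a*, is protein coding. The signals of *Batf3* and *Atf3* did not follow each other. *Atf3* was high on both 1 h arrays and lowest after 10 ECS, whereas *Batf3* was lowest after a single ECS and higher after 10 ECS than in sham.

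At rest, *Batf3* was the 1 gene of 6 measured that was at least 2-fold higher after 10 ECS than in sham, where 0.716% of all genes were, and 0 were at least 2-fold lower, where 1.22% were. After median scaling *Batf3* was again the 1 gene, and the shares over all genes were 0.952% and 0.734%. The others lay between log2 ratios of -0.37 (*Cebpb*) and 0.30 (*Crem*), with *Atf3* at the floor after 10 ECS and *Maff* at the floor on both arrays. With deposited signals used without a floor, *Atf3* had a log2 ratio of -3.02, from 15.4 and 1.9 units.

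Between the 1 h arrays, *Maff* and *Nfil3* were at least 2-fold lower after 11 ECS than after a single ECS, 2 of 7 genes against 0.782% of all genes, and *Batf3* was higher, 1 of 7 against 0.832%. *Nfil3* had 46.8% and *Maff* 45.1% of the single ECS signal, while *Atf3* had 75.5% and *Cebpb* 83.4%. *Crem* had a ratio of 1.05-fold higher by its brightest probe set and of 1.30-fold lower by the other measured one. *Cebpd* was 1.38-fold higher by its brightest and 1.34-fold lower by its dimmer probe set. For *Crem* and *Cebpd* the direction between the 1 h arrays thus depended on the probe set, and with a floor of 50 units the log2 ratio of *Maff* was -0.03.

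**Figure D4:**
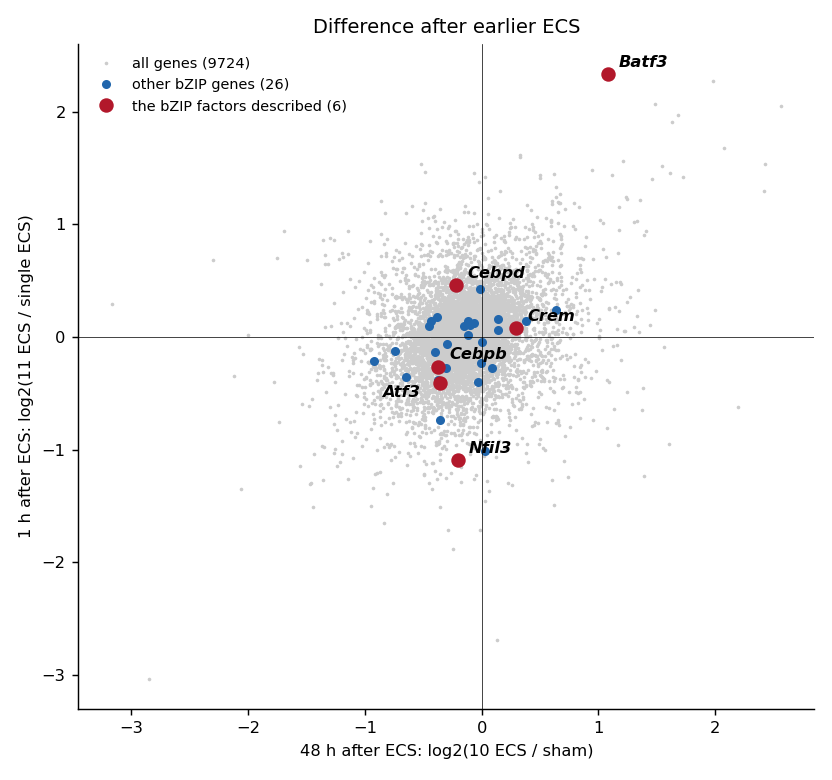
Log2 ratio of 11 ECS over single ECS (both 1 h) against that of 10 ECS (48 h) over sham, each point 1 gene by its brightest probe set, with signals at the floor entered at the floor. *Batf3* lies apart at 1.08 and 2.33, *Nfil3* lies at -0.21 and -1.09, and *Maff* is not shown because it was at the floor in sham and after 10 ECS.

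Against sham, 11 ECS left 3 of 7 genes at least 2-fold higher (*Atf3* 25.5-fold, *Nfil3* 3.04-fold and *Batf3* 2.98-fold) against 1.1% of all genes, and 0 lower against 3.11%. After median scaling *Crem* and *Maff* passed as well, 5 of 7, and the shares over all genes were 2.05% and 1.16%. *Maff* was at least 1.92-fold higher and *Crem* 1.64-fold. These ratios share the sham array with those for a single ECS and the 11 ECS array with the preceding ones.

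The response to the 11th ECS was set against the first as the difference of their log2 ratios, for the 5 genes above the floor on all 4 arrays. By the brightest probe sets, *Nfil3* had a difference of -0.89, rank 96 from the lowest of 8999 genes, *Crem* of -0.22, *Cebpb* of 0.11, *Cebpd* of 0.68 and *Batf3* of 1.25. The dimmer *Cebpd* probe set had log2 ratios of -0.35 and -0.64 for the first and the 11th ECS, a difference of the opposite sign. The other measured *Crem* probe set had 1.27 and 0.57, a larger fall than by the brightest. The median over all genes was 0.13. Only *Batf3* had an 11th ratio at least 2-fold larger, 1 of 5 against 1.77% of all genes, and 0 of 5 had a ratio at least 2-fold smaller, against 0.711%. After median scaling *Nfil3* passed as well, with a difference of -1.05, 1 of 5 smaller against 1.29% of all genes and 1 of 5 larger against 1.12%. For *Atf3* and *Maff* the order of both ratios is not known, since the 10 ECS array was at the floor.

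Genes whose signals over the 4 arrays were most like those of a member were taken by the root mean square difference of the 4 log2 signals, each centred on its own mean, among 7790 genes that reached 48 units. For *Atf3* these were *Egr2* (0.13), *Fosb* (0.21) and *Arc* (0.44), all early genes of neuronal activity. After 10 ECS, *Atf3*, *Egr2* and *Fosb* were each entered at the floor, from 1.9, 6.6 and 11.9 units. For *Nfil3* they were *Ankrd33b* (0.11), *Junb* (0.14) and *Gadd45b* (0.14). For *Maff*, entered at the floor on 2 of the arrays, they were *Zfp948* (0.14), *Kdm7a* (0.15) and *Neat1* (0.16). For *Batf3* they were *Sema3a* (0.17), *Gpnmb* (0.25) and *Gfap* (0.29). *Sema3a*, an axon guidance gene, read 15.7, 11.4 (entered at the floor), 44 and 50.2 units, and *Gpnmb* read 28.4, 23.1, 91.1 and 90.3.

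Other bZIP genes, apart from the AP-1 genes given further on, were counted in the same way. Of 38 listed, 32 were on the array and 28 were measured after a single ECS. Of these, 2 were at least 2-fold higher and 0 lower, against 1.2% and 2.89% of all genes. Their median log2 ratio was 0.03 above that of all genes. After the 11th ECS the counts were again 2 and 0 of 28, against 1.06% and 1.21% of all genes, with a median 0.12 above. *Jdp2*, the closest relative of *Atf3*, read 426.9, 1128.2, 333.7 and 677.5 units from sham to 11 ECS, ratios of 2.64-fold for the first ECS and 2.03-fold for the 11th. *Ddit3*, which encodes the C/EBP partner CHOP, read 164.9, 391.7, 161.2 and 296.3 units, ratios of 2.38-fold and 1.84-fold. *Creb3l3*, a dim gene, passed after the 11th ECS, from 13.1 to 27.6 units. Among genes with a mean signal of 12 to 50 units, 1.77% were at least 2-fold higher there. *Atf4*, the translationally controlled activator of stress genes, read 585.2, 1044.4, 581.3 and 892.8 units, under 2-fold in both comparisons, and *Atf2*, of the same branch, read 1292.7, 1071.6, 1209.4 and 1155.2. *Atf7* was the 1 gene past 2-fold between the 1 h arrays, with 46.9 units on the single ECS array and 23.3 on the 11 ECS array. Between these arrays 1.66% of genes with a mean signal of 12 to 50 units were at least 2-fold lower.

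The PAR bZIP genes *Dbp*, *Tef* and *Hlf* encode activators that bind the same sites as the repressor NFIL3. *Tef* read 1803.4, 1222.1, 1661.1 and 1349.9 units from sham to 11 ECS. *Dbp* read 848.6, 577.1, 935.9 and 646.4 units and *Hlf* 440, 334.2, 280.6 and 261.7. All 3 were lower on each 1 h array than on its comparison array, with log2 ratios of -0.56, -0.56 and -0.40 for *Dbp*, *Tef* and *Hlf* after the first ECS and of -0.53, -0.30 and -0.10 after the 11th, and 0 of 3 were past 2-fold. The median of all genes was -0.24 after the first ECS and -0.11 after the 11th, and the ratio of *Hlf* after the 11th was close to it. *Nfil3*, in contrast, was higher on both.

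Among the other Maf and CNC genes, which include partners of small Maf proteins, 9 were measured after each ECS and 0 were past 2-fold. *Mafg*, another small Maf gene, read 361.7, 304.4, 265 and 325.7 units, *Nfe2l1* 590.7, 512.8, 593.2 and 496.5, and *Bach1* 168.8, 183.9, 167.2 and 247.7. In the C/EBP branch, *Cebpg* read 175.4, 132.2, 130.2 and 146 units and *Cebpa* 42.8, 42.1, 34.6 and 34.8, so that of the 5 C/EBP and CHOP genes measured, *Cebpb* and *Ddit3* alone were above sham on both 1 h arrays. Among 9 CREB coactivator and kinase genes measured, *Sik1*, a kinase gene that restrains CREB coactivators, was the 1 past 2-fold in each 1 h comparison, with 18.8, 74.8, 16.5 and 45.5 units. *Prkar1a* and *Prkacb*, subunit genes of the cAMP-dependent kinase, had log2 ratios of -0.20 and -0.14 after the first ECS, above the median of all genes, -0.24. *Crtc3*, a coactivator gene, was lower after 11 ECS than in sham, with 46.4 against 93.2 units. In that comparison 3.11% of all genes were at least 2-fold lower. Of 12 stress response genes, 1 was at least 2-fold higher after the first ECS, namely *Ddit3*, and 0 after the 11th. *Hspa5*, a chaperone gene of the endoplasmic reticulum, read 1854.3, 3237.7, 1594.9 and 2605.8 units. Other bright genes of this list changed less. After the first ECS, *Xbp1*, *Ddit4* and *Asns* had log2 ratios of 0.12, 0.24 and -0.03. After the 11th these were 0.23, 0.18 and -0.13. The median log2 ratio of the 12 genes was 0.42 above that of all genes after the first ECS and 0.29 after the 11th. The AP-1 genes encode FOS and JUN proteins, of which the JUN proteins are partners of BATF3 and ATF3. Of these genes, 6 of 7 were at least 2-fold higher after the first ECS, against 1.2% of all genes. After the 11th the count was 4 of 6, against 1.06%. *Fos*, *Fosb*, *Fosl2* and *Junb* passed both times and *Jun* and *Jund* the first time. Between the 1 h arrays 1 of 6, *Junb*, was at least 2-fold lower after 11 ECS, against 0.782% of all genes.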

How the data were processed

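Gene expression was measured in mouse DG on 4 Affymetrix Mouse Genome 430A 2.0 arrays, 1 per group, each with 100 ng of RNA pooled from 3 mice. The authors computed signals with Microarray Suite 5.0 (MAS5; version and scaling between arrays not given in the sources used here), and the deposited values are these linear intensity values per probe set. Change and detection calls were not used here. Of 22626 probe sets besides 64 controls, 20380 had 1 gene symbol in the platform annotation, 691 several and 1555 none. The probe set of highest mean signal stood for each gene, and all probe sets of the 7 genes are given. Log2 ratios used a floor of 12 units. With 1 array per group, no test, standard error or p-value was computed, and the number of arrays limits the precision. The members and gene lists were chosen with earlier results of these data known. Named genes were the 7 members, listed genes past 2-fold, up to 3 more per list with the highest mean signal, and the 3 genes most like each member whose signals ranged at least 2-fold. Genes named outside this rule were chosen after their values were seen. The calculations were tested on simulated data and used Python 3.11.15, numpy 2.4.6 and pandas 2.3.3. Alternatives were a floor of 50, no floor, median scaling, quantile normalization and the median over probe sets. Promoter bases came from RefSeq (GRCm38.p6), and *Crem* and *Cebpd* had no entry in the table used here.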

Additional observations from a re-analysis of the deposited data

Results flagged for a closer look

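*Batf3* had a log2 ratio of -0.76 for single ECS against sham and of 0.49 for 11 ECS against 10 ECS, opposite directions for the same stimulus before and after repeated ECS. Both exceeded the SD between probe sets of 1 gene, 0.29 and 0.27, which is pooled over all genes, but *Batf3* had 1 probe set and a dim signal. Among genes with a mean signal of 12 to 50 units, the 5th to 95th percentiles were -1.13 to 0.59 and -0.94 to 0.72 for these comparisons, and both values lay inside them. The difference between both responses was not tested, since there was 1 array in each group, and the single ECS signal was close to the floor.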

How the results depend on the processing

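No paired analysis was possible because each group had 1 array. Among the 7 genes described, the count at least 2-fold higher after the first or the 11th ECS stayed within 1.5 times under all 5 alternatives. With a floor of 50 units, 0 of these genes were at least 2-fold higher after 10 ECS than in sham. Between 11 ECS and a single ECS, 0 were higher and 1 was lower at that floor. Their median log2 ratio of 11 ECS against sham was then 0.53. Without a floor, 1 of the 7 genes was at least 2-fold lower after 10 ECS than in sham, and that median was 1.58. After median scaling, 5 of the 7 genes were at least 2-fold higher after 11 ECS than in sham, and their median after a single ECS was 0.94. With the median over probe sets it was 1.27. The median difference of responses, 0.11, turned to -0.055 with a floor of 50 and to -0.052 after median scaling. Among the genes described, the count with an 11th response at least 2-fold larger went from 1 to 0 with a floor of 50, where *Batf3* had no value. Without a floor it was 2. The count of smaller ones went from 0 to 1 without a floor (*Maff*) and to 1 after median scaling (*Nfil3*). Over all genes, 159 were larger and 64 smaller, against 18 and 13 with a floor of 50, 1248 and 998 without a floor, 101 and 116 after median scaling and 106 and 106 after quantile normalization. Over all genes, 122 were higher and 293 lower after a single ECS, against 87 and 81 with a floor of 50, 688 and 1203 without a floor and 217 and 89 after median scaling. With a floor of 50, the higher and lower counts over all genes went from 106 and 122 to 59 and 12 (11 ECS against 10 ECS), from 73 and 124 to 15 and 28 (10 ECS against sham), from 83 and 78 to 19 and 31 (11 ECS against single ECS) and from 111 and 315 to 56 and 109 (11 ECS against sham). Without a floor they were 701 and 938, 695 and 867, 829 and 842, and 681 and 1229. After median scaling, 11 ECS against 10 ECS gave 153 and 79, 10 ECS against sham 96 and 74, and 11 ECS against sham 207 and 117. After quantile normalization, single ECS against sham gave 191 and 100, 11 ECS against 10 ECS 146 and 78, 10 ECS against sham 90 and 77, and 11 ECS against sham 196 and 131. For single genes, 7 of 29 values moved by more than the probe set SD with a floor of 50, 5 of 34 without a floor, 6 of 34 after median scaling, 0 of 34 after quantile normalization and 2 of 34 with the median over probe sets, where 1 value, the ratio of *Crem* between the 1 h arrays, changed sign. Signals near the floor limit what can be said of *Maff* and *Batf3*.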
